A study of Mus musculus with 15 samples.

Results

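Prednisone given on 1 day a week was compared with vehicle in quadriceps, a muscle of the thigh, of dystrophic mice. The comparison used 10 of the 15 libraries of the series, 5 from the weekly and 5 from the vehicle group, and took in the 14059 of 14272 named genes that reached 1 CPM (read counts scaled to a common library total) in at least 5 libraries. The animals were male DBA/2J-mdx mice, which carry the dystrophin mutation mdx on the DBA/2J background and model Duchenne muscular dystrophy in humans. Vehicle mice were injected intraperitoneally with DMSO 7 times a week. Weekly mice had prednisone by that route at 1 mg/kg 1 time a week, with vehicle on the other 6 days. Daily mice, on prednisone at 1 mg/kg with 7 injections a week, entered the fits for the estimate of the spread and are used at the end for comparison. The age is given as 6 months in the protocol text and as about 7 months in the sample labels. For the length of treatment and the time from last injection to tissue collection, no value was given in the sources used here. Whether each of a group's 5 libraries came from its own animal is also not stated, so the p-values measure the spread between these libraries, which may be technical. No untreated mice and no mice with dystrophin are in the series, so each change below is relative to dystrophic muscle that received DMSO.

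Prednisone is converted in the body to prednisolone, which enters cells and binds the glucocorticoid receptor, a transcription factor held in the cytoplasm by heat shock proteins. The bound receptor moves to the nucleus and raises or lowers the transcription of genes of metabolism, inflammation and the circadian clock. In muscle, glucocorticoids are known for relief of inflammation in dystrophic patients and, when given without pause, for loss of muscle mass through ubiquitin ligases and for insulin resistance. Weekly dosing leaves days without drug between injections.

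All groups expressed the contractile genes of muscle. The summed level of 15 muscle fibre genes was 220137 to 225011 CPM in vehicle and 171587 to 241058 CPM in weekly libraries. The vehicle libraries lay close together and the weekly libraries far apart: the biological coefficient of variation was 3.55% in vehicle and 29.4% in weekly libraries. Weekly 4 stood apart from the other 9. It had 2780768 reads, and the other 9 had 7491431 to 11052552. The 13 mitochondrial coding genes took 0.170% of its reads, 2.81% to 3.56% of those of its group and 2.62% to 2.72% of those of vehicle libraries. Its 24 macrophage markers summed to 4192 CPM, while the rest of its group had 327 to 864 CPM and vehicle libraries 663 to 702 CPM. Weekly 4 was the highest of the 5 weekly libraries for 42.2% of genes. Without it the weekly coefficient of variation was 16.9%, and the counts for gene lists below are given with and without it.

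**Figure D1:**
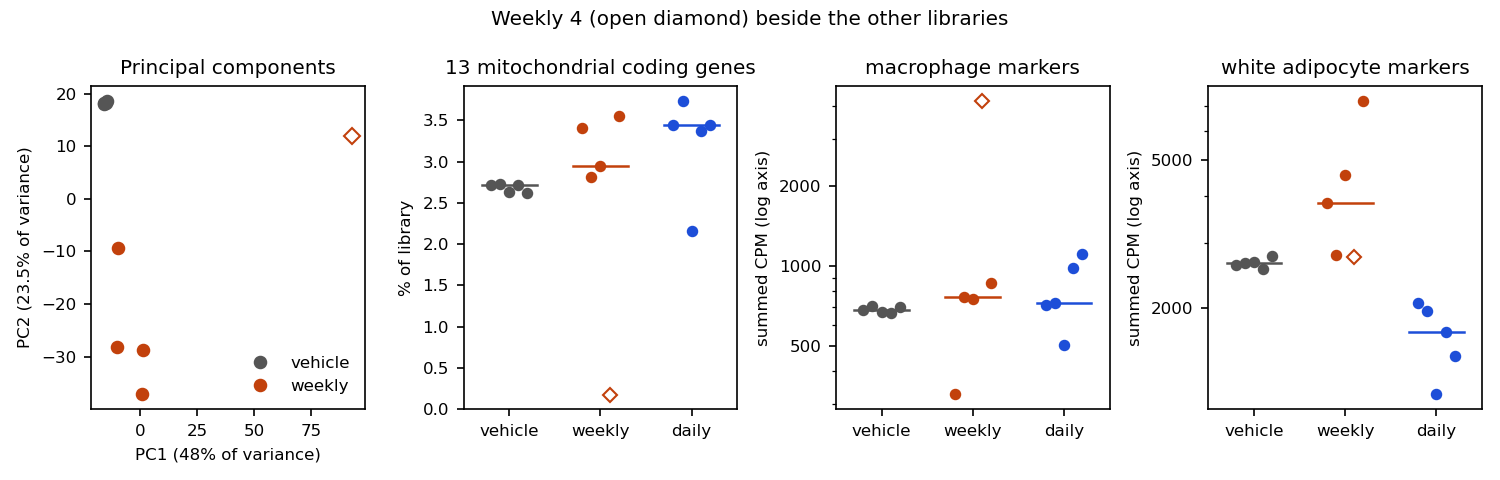
The left panel shows the first and second principal components of the 10 weekly and vehicle libraries, and the other panels show, per library, the share of reads in mitochondrial coding genes (%) and the summed CPM (log axes) of macrophage and white adipocyte markers in vehicle, weekly and daily libraries, with a bar at each median. The vehicle libraries fall almost on a single point, and weekly 4, the open diamond, lies at 93.0 on a first component that held 48% of the variance, at the bottom of the mitochondrial panel and at the top of the macrophage panel.

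Of the 14059 genes, 983 rose (6.99%) and 150 fell (1.07%) in weekly against vehicle libraries at an adjusted p under 0.05 (limma on log2 of CPM + 0.5, Benjamini-Hochberg, BH). Without weekly 4, 1309 rose (9.31%) and 255 fell (1.81%). The list counts below are to be read beside these shares of all genes. With both fits side by side, 1046 genes were called in the same direction, 87 were called only with weekly 4, 518 only without it, and 0 were called in opposite directions. TMM scaling, which centres the bulk of genes, gave 805 that rose (5.73%) and 588 that fell (4.18%), so the split between rising and falling genes depended on scaling. The median change of all genes was 0.17 (log2) on the deposited scale and 0.01 after TMM scaling. A total of 751 genes rose (5.34%) and 141 fell (1%) in all 3 fits, which are the deposited scale, TMM scaling and the deposited scale without weekly 4. The fit shares 1 estimate of the spread over groups with unequal spread, and on simulated data with such spreads false calls exceeded the nominal share. Averaging the vehicle libraries to 1 sample keeps that shared estimate and leaves 1 value in the group. The SE of Card14 then grew from 0.29 to 0.55, so this fit cannot show what the unequal spread does to the counts. In it Card14, Rrad, Socs3, Mt1, Mt2 and Adamts4 changed by 4.20, 3.54, 3.17, 2.79, 2.79 and 2.91, and Dbp by -2.54.

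**Figure D2:**
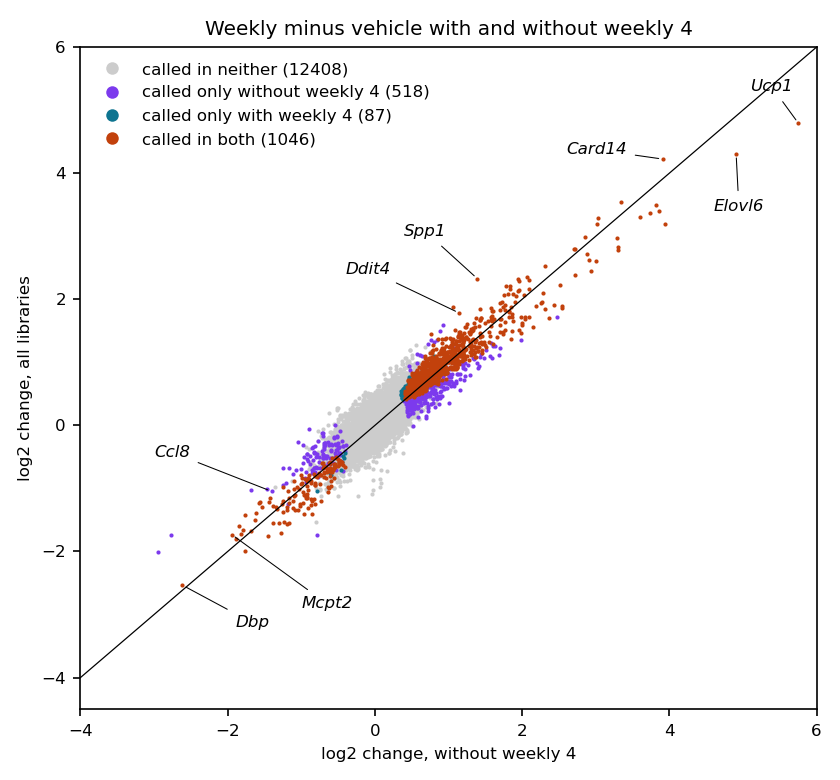
Each point is a gene, with its log2 change from vehicle to weekly without weekly 4 on the x axis and with all libraries on the y axis, coloured by the fits that called it; the line marks equal change. The 1046 genes called in both lie along the line, Spp1 and Ddit4 lie above it because weekly 4 was their highest library, and Ccl8 lies to the left of it.

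Many genes that build fatty acids rose. Of 17 genes of fatty acid synthesis, 11 rose and 0 fell in all 3 fits (12 and 0 without weekly 4), beside 5.34% and 1% of all genes, and the median change of the list was 1.27 beside 0.17 for all genes. Elovl6, which lengthens palmitate to stearate (chromosome 3, 129532355 to 129638495, plus strand of GRCm38), measured 4.87, 4.92, 4.35, 3.43 and 4.75 CPM in vehicle 1 to 5 and 137, 36.8, 246, 18.0 and 377 CPM in weekly 1 to 5. The groups did not overlap, but the weekly libraries spanned a wide range, with 5 at the top and 4 at the bottom. The difference in log2 CPM came to 4.31 (SE 0.56, limma adjusted p = 4.62e-05), or 4.91 without weekly 4.

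The same order of weekly libraries, with 5 highest, then 3 and 1, and 2 and 4 lowest, was seen in other members. Scd1, which desaturates the product, measured 298 to 342 CPM in vehicle libraries and 2283, 1315, 4282, 531 and 7887 CPM in weekly 1 to 5. Slc25a1, the citrate carrier that brings carbon out of mitochondria, measured 9.73 to 11.4 CPM in vehicle libraries and 63.0, 22.6, 113, 21.9 and 156 CPM in weekly 1 to 5. Each lowest weekly library lay above the highest vehicle library in these genes. Acss2, which makes acetyl-CoA from acetate, rose by 1.16 (SE 0.23, limma adjusted p = 0.00268), and the malic enzyme Me1 did not pass (0.52, adjusted p = 0.137), although it did without weekly 4 at 0.75.

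Some enzymes that supply NADPH for this synthesis rose beside it. Of 13 genes, 6 rose and 0 fell (8 and 0 without weekly 4), and 4 rose in all 3 fits: Tkt, Pgd, G6pdx and Taldo1, which are enzymes of the pentose phosphate pathway. Tkt, the transketolase (chromosome 14, 30548359 to 30574720, plus strand), measured 27.6, 25.2, 24.5, 21.7 and 26.8 CPM in vehicle 1 to 5 and 230, 80.3, 354, 82.7 and 582 CPM in weekly 1 to 5. The groups were well separated, and the log2 change was 2.97 (SE 0.38, limma adjusted p = 3.93e-05). Pgd, which makes NADPH from 6-phosphogluconate, rose by 1.73 (SE 0.28, limma adjusted p = 0.000449), and G6pdx, the entry enzyme, rose by 1.15 (SE 0.26, adjusted p = 0.00742).

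Among 14 regulators of lipid synthesis, 3 rose and 0 fell (5 and 0 without weekly 4), and the same count rose with TMM scaling. Srebf1, the transcription factor that drives lipogenic genes, measured 67.5 to 70.9 CPM in vehicle libraries and 100, 105, 134, 143 and 129 CPM in weekly 1 to 5. Insig1, which holds the SREBP precursors back, rose by 1.44 (SE 0.28, limma adjusted p = 0.00228), and Cebpa, a differentiation factor of fat cells, rose by 0.93 (adjusted p = 0.0157). Pparg, the nuclear receptor that directs fat cell formation, was called only without weekly 4, at 1.48.

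Several cholesterol genes rose. Of 21 genes of cholesterol synthesis and uptake, 9 rose and 0 fell in all 3 fits, and 13 rose and 0 fell without weekly 4. The median change was 0.66 beside 0.17 for all genes. Acat2, which joins acetyl-CoA units at the start of the pathway, measured 4.26, 4.21, 4.24, 4.09 and 5.54 CPM in vehicle 1 to 5 and 14.4, 6.88, 19.5, 7.19 and 29.0 CPM in weekly 1 to 5. Every weekly library was above every vehicle library, with weekly 5 highest and weekly 2 and 4 lowest, and the change was 1.48 (SE 0.33, limma adjusted p = 0.00757). Among the later enzymes, Pmvk rose by 1.19, Fdps by 0.84 and Hmgcs1 by 0.75. Sqle, which oxidises squalene, did not pass at 0.63 (adjusted p = 0.152), and Idi1, which isomerises the isoprenoid unit, passed only without weekly 4 at 0.84.

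The promoters of this list were read from RefSeq on GRCm38.p6, as the 250 bases before each start site, and searched on both strands for CCAAT, the core bound by NF-Y, which works beside SREBP at sterol genes. Of 14 tested members with an entry, 13 held it (92.9%), against 39.6% of the 10007 tested genes with an entry. Shown are the stretches that hold the matches in Hmgcs1 (chr13:119690101-119690330, plus strand), the enzyme that commits carbon to the pathway, and in Idi1 (chr13:8885541-8885605, plus strand), with the matches, here as the reverse complement ATTGG, in capitals.
Hmgcs1: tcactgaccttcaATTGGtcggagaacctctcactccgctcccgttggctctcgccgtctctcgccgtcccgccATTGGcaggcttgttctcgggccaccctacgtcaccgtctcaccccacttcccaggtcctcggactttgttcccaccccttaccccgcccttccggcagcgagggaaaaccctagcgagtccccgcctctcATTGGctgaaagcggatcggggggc
Idi1: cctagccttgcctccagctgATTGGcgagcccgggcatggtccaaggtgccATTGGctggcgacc
Hmgcs1 had 3 matches and Idi1 had 2. A match describes the letters in the window and is not a measurement of binding, and the share is that of the whole list, whether a gene rose or not. CCAAT was held by 39% of genes that rose in all 3 fits and by 36.8% to 61.3% of members in the other lists searched. The sterol element, searched as TCACNCCAC or TCACNCGAC, was held by 1 of the 14 members (7.14%), against 1.8% of tested genes with an entry.

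Among genes that store fat and mark fat cells, the size of the change varied between weekly libraries. Of 22 genes of triglyceride storage and release, 10 rose and 0 fell (14 and 0 without weekly 4), 6 in all 3 fits. Dgat2, which completes triglycerides, measured 21.5 to 28.6 CPM in vehicle libraries and 119, 34.4, 123, 27.3 and 200 CPM in weekly 1 to 5, so that weekly 4 lay within the vehicle range. Of 20 white adipocyte markers, 11 rose with all libraries, 17 without weekly 4 and 6 in all 3 fits, and 0 fell. Adipoq, the hormone adiponectin that fat cells secrete, measured 29.3 to 30.6 CPM in vehicle libraries and 49.0, 48.6, 105, 43.5 and 166 CPM in weekly 1 to 5, and rose by 1.23 (SE 0.29, limma adjusted p = 0.0112). Of 13 brown adipocyte markers, 7 rose and 0 fell, and 8 and 0 without weekly 4.

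The summed level of the 20 white adipocyte markers measured 2550 to 2762 CPM in vehicle libraries and 3851, 2780, 4583, 2747 and 7243 CPM in weekly 1 to 5, a difference of 1594 CPM in the means (exact permutation test, two-sided, 5 against 5, p = 0.0159, BH-adjusted p = 0.0464 over 38 library tests). The 38 tests take each library measure with and without weekly 4, so they overlap. In bulk muscle, more cells of a type and more RNA per cell cannot be told apart. In weekly 2 and 4 the adipocyte sum lay within or just above the vehicle range, and Elovl6, at 36.8 and 18.0 CPM, and Tkt, at 80.3 and 82.7 CPM, were above all vehicle libraries. The marker Adipoq, given above, was also higher than in all vehicle libraries in both, so the sum does not stand for each of its markers. The other markers of the sum are not given by library here. In weekly 5 the adipocyte sum and the lipogenic genes were both at their highest. Beyond these values, the part of fat cells in the rise was not tested.

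**Figure D3:**
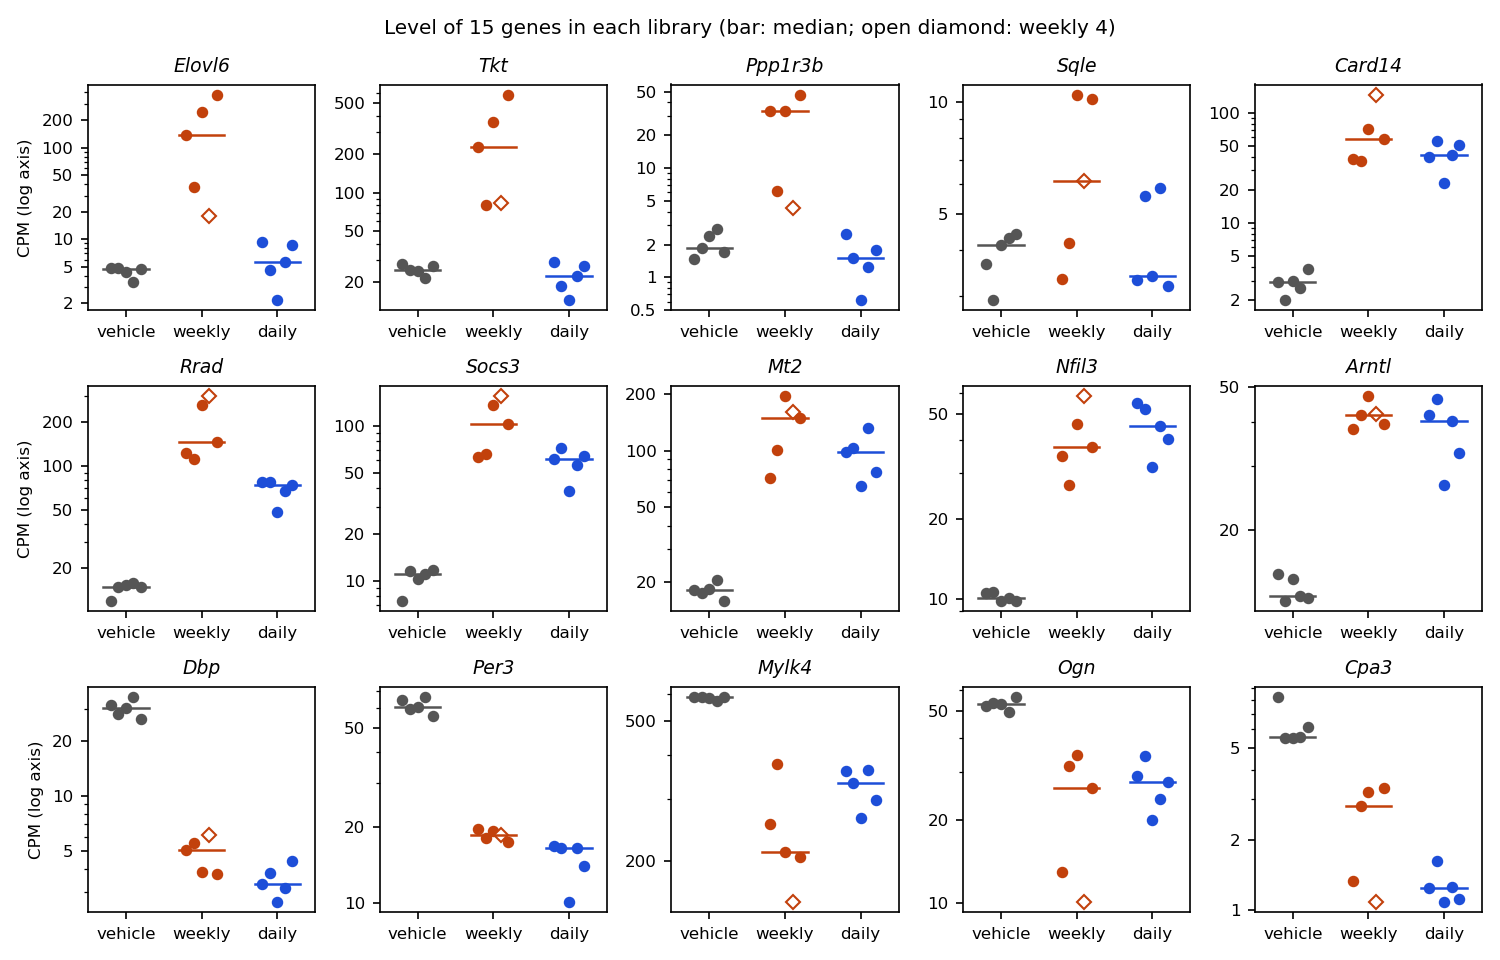
Each panel shows 1 gene in CPM (log axis) in vehicle, weekly and daily libraries, with a bar at the median and weekly 4 as an open diamond. Elovl6, Tkt and Ppp1r3b were spread over a wide range in weekly libraries and stayed near vehicle in daily libraries, while Arntl, Dbp and Per3 formed groups away from vehicle under both regimens.

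Carbohydrate genes changed at a few steps. Of 26 genes of glucose entry and glycogen, 6 rose and 0 fell (8 and 1 without weekly 4), 4 in all 3 fits. Ppp1r3b and Ppp1r3c encode subunits that bring protein phosphatase 1 to glycogen and so favour glycogen synthesis. Ppp1r3b (chromosome 8, 35375739 to 35388139, plus strand) measured 1.46, 1.87, 2.404, 2.77 and 1.70 CPM in vehicle 1 to 5 and 33.2, 6.15, 33.4, 4.32 and 47.0 CPM in weekly 1 to 5. Ppp1r3c (chromosome 19, 36731731 to 36736653, minus strand) measured 166, 157, 172, 156 and 166 CPM in vehicle 1 to 5 and 447, 423, 334, 561 and 370 CPM in weekly 1 to 5. Neither gene's groups overlapped, but the first varied several-fold among weekly libraries and the second did not. The changes were 2.83 (SE 0.47, limma adjusted p = 0.000645) and 1.36 (SE 0.16, adjusted p = 1.32e-05). Slc2a1, a glucose transporter of many cell types, rose by 1.01, whereas Slc2a4, the insulin-responsive transporter of muscle and fat, measured 0.33 (adjusted p = 0.189).

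In the tricarboxylic acid cycle, which burns acetyl-CoA and exports citrate, 10 of 25 genes rose and 0 fell, against 20 and 0 without weekly 4, and 5 rose in all 3 fits. Pcx, the pyruvate carboxylase that refills the cycle, measured 76.5 to 84.3 CPM in vehicle libraries and 146, 132, 262, 127 and 331 CPM in weekly 1 to 5. Its change of 1.2 (SE 0.23, limma adjusted p = 0.00207) stood apart in size from the other 4, Mdh1, Mdh2, Dlst and Sdha, at 0.53 to 0.63. The 13 genes encoded in mitochondrial DNA had a median of -0.85 with all libraries and 0.06 without weekly 4. Limma called 0 either way (1 at an unadjusted p under 0.05 with all libraries), and with all libraries edgeR and DESeq2 called 0. Their summed share of reads was higher in weekly libraries once weekly 4 was left out, at 2.81% to 3.56% against 2.62% to 2.72%. The exact permutation test (two-sided, 4 against 5) gave p = 0.0159, the smallest it can give, and BH-adjusted p = 0.0464 over 38 library tests. With all 5 weekly libraries the means were 2.58% in weekly and 2.68% in vehicle libraries, and the share did not pass. Weekly 4 was set apart in part by its low mitochondrial share, so leaving it out favours a higher weekly share. The mitochondrial ribosomal RNA mt-Rnr2 took 0.567% to 9.41% of reads in weekly and 12.6% to 13.4% in vehicle libraries, with no overlap (5 against 5, exact permutation p = 0.00794, and 0.0159 without weekly 4, BH-adjusted p = 0.0464 for both). Counts after rescaling without these RNAs are given at the end, and their part in the changes was otherwise not tested.

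Amino acid genes were mixed in direction. Of 28 genes of amino acid transport and nitrogen, 9 rose and 1 fell, and 10 and 1 without weekly 4. Glul, the glutamine synthetase, measured 141 to 150 CPM in vehicle libraries and 232, 214, 341, 371 and 424 CPM in weekly 1 to 5. Slc3a2 and Slc7a1, parts of transporters for large neutral and cationic amino acids, rose by 0.84 and 0.87. Slc7a2, another cationic amino acid transporter (chromosome 8, 40862396 to 40922308, plus strand), measured 95.2, 96.7, 94.4, 95.0 and 92.0 CPM in vehicle 1 to 5 and 37.6, 57.2, 44.1, 32.4 and 32.8 CPM in weekly 1 to 5. It was lower in all 5 weekly libraries and fell by 1.24 (SE 0.15, limma adjusted p = 2.52e-05).

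Some metal-binding genes rose. Mt1 and Mt2, metallothioneins that hold zinc and copper, lie side by side on chromosome 8. Mt1 measured 25.2, 22.2, 21.8, 25.3 and 25.4 CPM in vehicle 1 to 5 and 95.0, 125.04, 265, 210 and 205 CPM in weekly 1 to 5. Mt2 measured 18.1, 17.6, 18.3, 20.6 and 15.8 CPM in vehicle 1 to 5 and 71.8, 101, 196, 161 and 149 CPM in weekly 1 to 5. In both, weekly 1 was lowest and weekly 3 highest, and no weekly library came near the vehicle range. Slc39a14, which carries zinc into cells (chromosome 14, 70303469 to 70351425, minus strand), measured 19.7 to 22.9 CPM in vehicle libraries and 68.2, 88.8, 176, 231 and 129 CPM in weekly 1 to 5, and rose by 2.53 (SE 0.25, limma adjusted p = 1.37e-06). A second importer, Slc39a10, rose by 1.27 (SE 0.24, adjusted p = 0.00236). These 4 were the only members called among 21 genes of metallothioneins and zinc transport on the deposited scale, also without weekly 4 (4 rose and 0 fell), and with TMM scaling 1 other gene fell.

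Both metallothionein promoters were searched for the core bound by the zinc sensor MTF1, as TGCACNC or TGCGCNC on both strands, which 34% of the tested genes with an entry held in the 250 bases before their start. In these windows Mt1 had 1 match and Mt2 had 3. The Mt1 window ends at 94179088, inside the gene as its position is annotated (94179082 to 94180327). The counts hold for the start sites used, and windows at other start sites were not searched. The stretches with the matches are shown for Mt1 (chr8:94179046-94179088, plus strand) and Mt2 (chr8:94172375-94172594, plus strand) from RefSeq on GRCm38.p6, with the cores in capitals and the last Mt2 core read on the other strand.
Mt1: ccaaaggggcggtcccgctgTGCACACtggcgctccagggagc
Mt2: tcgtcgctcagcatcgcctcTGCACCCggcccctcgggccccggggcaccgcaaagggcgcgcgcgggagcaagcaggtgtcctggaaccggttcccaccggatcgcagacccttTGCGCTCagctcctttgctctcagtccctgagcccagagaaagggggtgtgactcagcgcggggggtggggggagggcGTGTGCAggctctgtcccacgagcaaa
The share of all tested genes with this short core is large, so its presence in these windows does not set these genes apart. The number of cores per window was not compared with that of other genes.

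Among 35 genes of the glucocorticoid receptor and its targets, 14 rose and 0 fell with all libraries, 13 rose and 2 fell without weekly 4, and 9 rose and 1 fell with TMM scaling, with 9 rising in all 3 fits. The median was 0.46 with all libraries and 0.34 without weekly 4. Gadd45g, a stress gene that slows growth, measured 4.80 to 8.40 CPM in vehicle libraries and 25.8, 23.9, 37.0, 114 and 32.8 CPM in weekly 1 to 5. Errfi1, a brake on the epidermal growth factor receptor, measured 24.8 to 26.2 CPM in vehicle libraries and 35.6, 54.1, 111, 68.7 and 76.5 CPM in weekly 1 to 5. Angptl4, which inhibits lipoprotein lipase, measured 26.8 to 35.9 CPM in vehicle libraries and 36.7, 56.7, 80.6, 142 and 117 CPM in weekly 1 to 5. In each the weekly libraries lay above the vehicle libraries, and the changes were 2.33, 1.32 and 1.32 (SE 0.30, 0.22 and 0.26).

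Weekly 4 set much of the size of other targets. Ddit4, an inhibitor of mTOR, measured 3.05 to 4.35 CPM in vehicle libraries and 9.61, 7.42, 8.66, 87.0 and 11.5 CPM in weekly 1 to 5. Its change was 1.78 (limma adjusted p = 0.00994) with weekly 4 and 1.15 (adjusted p = 2.1e-06) without it, called both ways. Nfkbia, the inhibitor of NF-kappaB that glucocorticoids raise, passed on the deposited scale only with weekly 4 (0.73, limma adjusted p = 0.0484, against 0.46, adjusted p = 0.0523), and with TMM scaling only without it (0.56, adjusted p = 0.0836, against 0.31, adjusted p = 0.0471). Hsd11b1, which regenerates active glucocorticoid inside cells (chromosome 1, 193221634 to 193264075, minus strand), was low in weekly 4. It measured 3.28 to 4.504 CPM in vehicle libraries and 12.1, 8.50, 20.1, 1.44 and 39.99 CPM in weekly 1 to 5, and on the deposited scale passed only without weekly 4 (1.99, limma adjusted p = 1.41e-07).

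Signalling genes included Card14 and Rrad, which also passed with the vehicle libraries averaged to 1 sample. Card14, a scaffold that activates NF-kappaB, measured 2.92, 1.99, 2.98, 2.54 and 3.84 CPM in vehicle 1 to 5 and 38.2, 36.4, 71.6, 146 and 58.4 CPM in weekly 1 to 5. Rrad, a small GTPase that holds back calcium channels (chromosome 8, 104628070 to 104631327, minus strand), measured 11.8, 14.7, 15.3, 15.7 and 14.7 CPM in vehicle 1 to 5 and 122, 111, 262, 302 and 146 CPM in weekly 1 to 5. Sphk1, which makes the lipid signal sphingosine 1-phosphate (chromosome 11, 116530925 to 116536674, plus strand), measured 0.819 to 2.32 CPM in vehicle libraries and 9.48, 14.5, 32.5, 44.95 and 22.3 CPM in weekly 1 to 5. Weekly 3 and 4 were highest and weekly 1 and 2 lowest in all 3 genes, an order unlike that of the lipogenic genes. Sphk1 changed by 3.29 (SE 0.33, limma adjusted p = 1.45e-06), from a vehicle level at which 3 reads gave 0.365 CPM in vehicle 1. Adamts4, a protease of the matrix (chromosome 1, 171250421 to 171260637, plus strand), measured 1.29 to 3.62 CPM in vehicle libraries and 9.48, 13.5, 29.2, 28.0 and 23.2 CPM in weekly 1 to 5.

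Of 26 genes of interleukin 6 signalling and the acute phase, 13 rose and 0 fell with and without weekly 4, and 10 rose in all 3 fits. The median was 0.84 with all libraries and 0.48 without weekly 4. Socs3, the feedback inhibitor of this pathway (chromosome 11, 117966079 to 117970047, minus strand), measured 7.43, 11.6, 10.3, 11.1 and 11.9 CPM in vehicle 1 to 5 and 62.6, 66.0, 135, 156 and 103 CPM in weekly 1 to 5. Stat3, the transcription factor it restrains, rose by 0.95 (SE 0.18, limma adjusted p = 0.00206). The receptor subunit Osmr rose by 1.07, and Fgl2, a secreted immune regulator, measured 47.6 to 53.8 CPM in vehicle libraries and 86.5, 137, 248, 320 and 187 CPM in weekly 1 to 5. No weekly value of Socs3 or Fgl2 fell into the vehicle range.

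Immediate early genes, which respond within minutes to growth factors, strain or stress, rose in large part. Of 30 genes, 17 rose and 0 fell in all 3 fits (18 and 0 without weekly 4), and the groups did not overlap for 15, beside 11.8% of all genes that were higher without overlap. Maff, a small bZIP factor, measured 1.40 to 2.86 CPM in vehicle libraries and 8.01, 7.60, 11.9, 27.0 and 11.7 CPM in weekly 1 to 5. Junb, a subunit of AP-1, measured 16.8 to 21.4 CPM in vehicle libraries and 43.0, 46.6, 87.7, 150 and 59.6 CPM in weekly 1 to 5. Egr1 and Fos, which are known to be the quickest of the family, rose by 1.10 and 1.16. Of 23 MAP kinase phosphatases and feedback genes, 8 rose and 0 fell in all 3 fits (10 and 0 without weekly 4). Map3k6, a stress-activated kinase, rose by 2.06 (SE 0.27, limma adjusted p = 5.54e-05) and the phosphatases Dusp2 and Dusp5 rose by 1.57 and 1.35.

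Of 20 growth arrest genes, 6 rose and 0 fell in all 3 fits (7 and 0 without weekly 4). Cdkn1a, the cell cycle inhibitor p21, measured 19.5 to 21.3 CPM in vehicle libraries and 42.2, 35.1, 49.0, 122 and 55.1 CPM in weekly 1 to 5. Btg2, an antiproliferative gene, rose by 1.68. Of 22 cell cycle genes tested, limma called 0 with all libraries (4 at an unadjusted p under 0.05), edgeR and DESeq2 also called 0, and 3 fell in limma without weekly 4. In the NF-kappaB pathway 7 of 29 rose and 0 fell (6 and 0 without weekly 4), among them Bcl3, an inhibitor family member that acts in the nucleus, at 1.83, and the TWEAK receptor Tnfrsf12a at 1.15.

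Clock genes changed in both directions, and Arntl, Per3 and Dbp did so with little scatter among weekly libraries. The time of day at tissue collection was not among the sample details used here, and its part in these changes was not tested. Of 17 core clock genes, 3 rose and 5 fell in all 3 fits, and 4 rose and 6 fell without weekly 4. Npas2 and Arntl are partners in the activating arm. Arntl (chromosome 7, 113207465 to 113314126, plus strand) measured 15.1, 12.6, 14.5, 13.1 and 12.9 CPM in vehicle 1 to 5 and 38.2, 41.7, 47.2, 42.1 and 39.3 CPM in weekly 1 to 5. The repressor Cry1 rose by 0.85 and Npas2 by 1.41. Per3, a repressor (chromosome 4, 151003652 to 151044665, minus strand), measured 64.2, 59.1, 60.3, 66.4 and 55.7 CPM in vehicle 1 to 5 and 19.8, 18.2, 19.4, 18.7 and 17.4 CPM in weekly 1 to 5. Weekly 4 lay within the narrow range of the other weekly libraries in both genes. Per2 fell by 1.5, Nr1d2 by 1.11, Nr1d1 by 0.69 and Rora by 0.61, the last 3 being nuclear receptors that act on the ROR elements of Arntl and other genes.

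Of 13 clock output genes, 4 rose and 2 fell in all 3 fits, and the same counts held without weekly 4. Dbp, an activator at D-boxes, measured 31.3, 28.2, 30.3, 34.8 and 26.2 CPM in vehicle 1 to 5 and 5.07, 5.52, 3.83, 6.11 and 3.74 CPM in weekly 1 to 5. Its relative Tef fell by 0.86 (SE 0.13, limma adjusted p = 0.000168). Nfil3, a repressor at the same D-boxes (chromosome 13, 52967209 to 52981073, minus strand), measured 10.6, 10.7, 9.85, 10.1 and 9.83 CPM in vehicle 1 to 5 and 34.8, 27.1, 45.8, 58.6 and 37.7 CPM in weekly 1 to 5. The activators Dbp and Tef were thus lower, and the repressor higher, in all 5 weekly libraries.

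The D-box was searched in RefSeq promoters (GRCm38.p6, 250 bases, both strands) as TTATGNAA or TTACGNAA, which 3.12% of tested genes with an entry held, and the ROR element as TAGGTCA, which 1.98% held. Per3, which fell, held 2 D-boxes (chr4:151044796-151044890, minus strand), and Nfil3, which rose, held 1 ROR element, here as its reverse complement (chr13:52981040-52981071, minus strand). The Nfil3 stretch lies inside the gene as placed above, which reaches to 52981073. It is upstream only of the RefSeq start site, which differs from that position. The stretches are shown with these matches in capitals. A match is not a measurement of binding, and the part of these elements in the changes was not tested.
Per3: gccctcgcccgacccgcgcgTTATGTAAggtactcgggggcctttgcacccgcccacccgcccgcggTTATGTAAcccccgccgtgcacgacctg
Nfil3: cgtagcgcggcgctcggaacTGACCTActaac
In all, 2 of 12 core clock genes with an entry held a D-box, and 0 of 12, with Arntl among those searched, held the ROR element. Of 11 clock output genes, 1 held a D-box and 1 held the ROR element. The E-box, searched as CACGTG, was held by 3 of the 12 core clock and 3 of the 11 clock output genes, against 9.8% of tested genes with an entry.

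Some protein folding and redox genes rose. Of 28 heat shock and chaperone genes, 9 rose and 0 fell (11 and 0 without weekly 4), 7 in all 3 fits. Hsp90aa1, a chaperone that holds the unbound glucocorticoid receptor (chromosome 12, 110690605 to 110702728, minus strand), measured 49.996 to 56.4 CPM in vehicle libraries and 87.2, 89.3, 103, 120 and 120 CPM in weekly 1 to 5. Of 25 genes of the unfolded protein response, 7 rose and 0 fell (7 and 1 without weekly 4), with Hspa5, the main chaperone of the endoplasmic reticulum, at 0.74 and the transcription factor Atf4 at 0.54. Of 25 oxidative stress genes, 6 rose and 1 fell, and 10 and 1 without weekly 4. Srxn1, which repairs oxidised peroxiredoxins, rose by 1.40 (SE 0.20, limma adjusted p = 0.00015), and Gpx3, the secreted glutathione peroxidase, fell by 0.51 (adjusted p = 0.012). Of 22 ribosome biogenesis genes 6 rose and 0 fell in all 3 fits (7 and 0 without weekly 4), Nop56, a nucleolar RNA methylation protein, by 0.84.

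For the 51 cytosolic ribosomal proteins the calls depended on the scaling. With all libraries 1 of them fell and 0 rose on the deposited scale, and 17 fell with TMM scaling. Without weekly 4 the counts that fell were 4 and 42, where TMM scaling called 9.52% of all genes higher and 7.48% lower. Their median was -0.10 on the deposited scale and -0.28 with TMM scaling. Rps18, of the small subunit, measured 38.8 to 53.9 CPM in vehicle libraries and 27.0, 30.1, 27.6, 23.0 and 35.3 CPM in weekly 1 to 5, and fell in all 3 fits by 0.68 on the deposited scale.

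**Figure D4:**
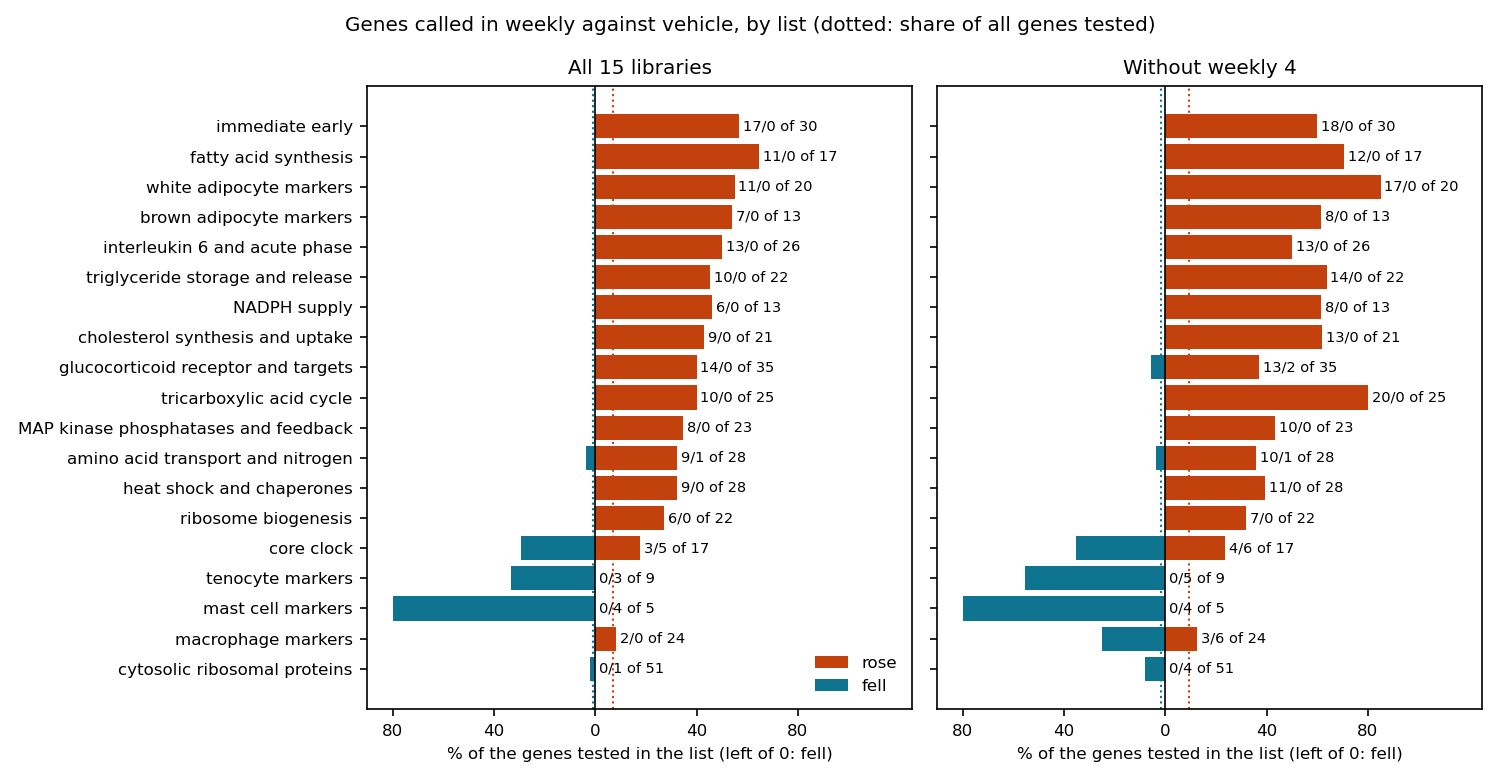
For 19 gene lists, bars show the share of tested members that rose (right of 0) or fell (left of 0) in weekly against vehicle libraries, with all libraries (left panel) and without weekly 4 (right panel); the counts stand beside the bars as rose/fell of tested and dotted lines mark the shares of all genes. Fatty acid synthesis and immediate early genes stood at 11 of 17 and 17 of 30, mast cell markers at 4 of 5 falling, and macrophage markers went from 2 rising and 0 falling with weekly 4 to 3 and 6 without it.

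Matrix genes gave a mixed picture in which weekly 4 was often highest. Of 20 collagens 5 rose and 0 fell (6 and 1 without weekly 4), 4 in all 3 fits: Col4a1, Col4a2, Col15a1 and Col5a3, of which the first pair forms basement membranes. Col4a1 measured 249 to 269 CPM in vehicle libraries and 430, 404, 623, 1378 and 617 CPM in weekly 1 to 5, and changed by 1.25 with weekly 4 and 0.96 without it. The median of the list was 0.88 with weekly 4 and 0.29 without it. Of 33 genes of TGF-beta and BMP signalling 7 rose and 0 fell, all 7 in all 3 fits, and 7 and 0 without weekly 4. Thbs1, which activates latent TGF-beta, measured 35.6 to 44.1 CPM in vehicle libraries and 45.8, 60.3, 143, 120 and 97.6 CPM in weekly 1 to 5. Its groups did not overlap and it rose by 1.10, and the signal carrier Smad3 rose by 0.86.

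Of 11 bone and calcification genes, 5 rose and 0 fell with and without weekly 4. Alpl, the alkaline phosphatase that permits mineral to form (chromosome 4, 137741733 to 137796384, minus strand), measured 2.54 to 3.84 CPM in vehicle libraries and 8.81, 9.23, 24.3, 15.8 and 16.6 CPM in weekly 1 to 5. Mmp9, a gelatinase of osteoclasts, macrophages and neutrophils, measured 1.24 to 1.77 CPM in vehicle libraries and 2.67, 7.69, 8.86, 29.5 and 7.22 CPM in weekly 1 to 5. Weekly 4, which had the highest macrophage sum, was highest for Mmp9 and not for Alpl.

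Some tendon genes fell. Of 9 tenocyte markers 3 fell and 0 rose in all 3 fits, and 5 fell and 0 rose without weekly 4. Fmod, which binds collagen fibrils of tendon, measured 109, 119, 114, 118 and 117 CPM in vehicle 1 to 5 and 35.1, 40.8, 83.2, 57.5 and 45.5 CPM in weekly 1 to 5, and fell by 1.2 (SE 0.20, limma adjusted p = 0.000531). Mkx, a transcription factor of tendon, fell by 0.91 (adjusted p = 0.0151). Ogn, a small proteoglycan of connective tissue (chromosome 13, 49608046 to 49624501, plus strand), measured 49.8 to 56.5 CPM in vehicle libraries and 12.9, 31.6, 34.5, 10.1 and 26.3 CPM in weekly 1 to 5. Pcolce2, which aids collagen maturation, fell by 1.38 (SE 0.23, adjusted p = 0.000569). The summed tenocyte level was 394 to 428 CPM in vehicle and 207 to 619 CPM in weekly libraries, with 619 CPM in weekly 4, and the sum did not pass a test between the groups (exact permutation test, two-sided, 5 against 5, p = 0.611, and 4 against 5 without weekly 4, p = 0.0952). Of 12 fibroblast markers 0 rose and 1 fell, and 1 rose and 2 fell without weekly 4.

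Mast cell proteases fell. Of 5 markers tested, 4 fell in all 3 fits, and thus also without weekly 4: the proteases Cpa3, Cma1, Mcpt4 and Tpsb2. Cpa3, the carboxypeptidase of mast cell granules (chromosome 3, 20215620 to 20242181, minus strand), measured 8.28, 5.502, 5.495, 5.53 and 6.10 CPM in vehicle 1 to 5 and 1.33, 2.80, 3.22, 1.08 and 3.35 CPM in weekly 1 to 5. For comparison, 1.66% of all genes were lower in weekly libraries without overlap between the groups. Mcpt2, a protease of mucosal mast cells outside the list, measured 5.502 to 7.08 CPM in vehicle libraries and 0.400, 2.44, 1.21, 3.24 and 1.68 CPM in weekly 1 to 5. The groups did not overlap in either gene, although in weekly 4, where 3 reads gave 1.08 CPM, Cpa3 stood at 3 reads and Mcpt4 and Tpsb2 had no read. Kit, the growth factor receptor of mast cells that other cells also express, did not pass (0.04, limma adjusted p = 0.918). The summed level of the markers was 25.8 to 32.6 CPM in vehicle and 10.1 to 20.7 CPM in weekly libraries (exact permutation test, two-sided, 5 against 5, p = 0.00794, the smallest it can give, BH-adjusted p = 0.0464 over 38 library tests).

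Macrophage genes depended on weekly 4. Of 24 markers, 2 rose and 0 fell with all libraries, and 3 rose and 6 fell without weekly 4. Csf1r, the receptor for the macrophage growth factor, measured 60.8 to 74.1 CPM in vehicle libraries and 24.0, 43.0, 47.2, 268 and 57.0 CPM in weekly 1 to 5. Emr1, which encodes F4/80, measured 16.8 to 21.1 CPM in vehicle libraries and 4.81, 11.9, 11.3, 57.9 and 15.6 CPM in weekly 1 to 5. In both, 4 weekly libraries lay below every vehicle library and weekly 4 lay above them all, and without it they fell by 0.71 and 0.85 (limma adjusted p = 0.00453 and 0.00531). C1qa, C1qb and C1qc, which encode complement C1q, and Cx3cr1, a chemokine receptor, also fell without weekly 4, while Gpnmb, of lipid-laden and phagocytic macrophages, rose in all 3 fits by 1.37. Spp1 (osteopontin) reached 896 CPM in weekly 4, while the rest of its group had 15.4 to 57.3 CPM and vehicle libraries 11.1 to 14.4 CPM.

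Some markers of vessels passed the test. Of 18 endothelial markers 1 rose and 0 fell, beside 6.99% and 1.07% of all genes. Without weekly 4, 5 rose and 0 fell, beside 9.31% and 1.81%. Their sum was 473 to 491 CPM in vehicle and 484 to 758 CPM in weekly libraries (exact permutation test, two-sided, 5 against 5, p = 0.0159, BH-adjusted p = 0.0464, and 0.0804 without weekly 4). Of 12 smooth muscle and pericyte markers 3 rose, Acta2, Myh11 and Cspg4, at 0.51 to 0.83, and 0 fell, with the same counts without weekly 4. Of 14 lymphocyte and 11 neutrophil markers only 1 each could be tested.

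Few contractile genes passed the test, while some regulators of muscle fell. Of 15 muscle fibre genes limma called 0 on the deposited scale with and without weekly 4. With all libraries 2 had an unadjusted p under 0.05, Actn2 and Mb, both with positive differences of 0.46 and 0.42. With TMM scaling limma called 1 as lower with all libraries and 3 without weekly 4, beside 4.18% and 7.48% of all genes. With all libraries edgeR called 1 and DESeq2 2 as lower in weekly libraries. Of 16 fast fibre genes limma called 0 on the deposited scale with and without weekly 4 (1 at an unadjusted p under 0.05 with all libraries). With TMM scaling limma called 0 with all libraries and 2 as lower without weekly 4. With all libraries edgeR called 0 and DESeq2 1. Mylk4, a kinase of the myosin light chain kinase family (chromosome 13, 32700834 to 32783954, minus strand), measured 587, 588, 585, 572 and 586 CPM in vehicle 1 to 5 and 254, 378, 211, 152 and 206 CPM in weekly 1 to 5, and fell by 1.34 (SE 0.18, limma adjusted p = 5.18e-05). Of 27 atrophy ligases and FoxO genes 1 rose and 2 fell in all 3 fits, with the same counts without weekly 4. Fbxo32 (atrogin-1), the ubiquitin ligase of muscle wasting, measured 572, 577, 602, 627 and 554 CPM in vehicle 1 to 5 and 320, 417, 323, 235 and 280 CPM in weekly 1 to 5. Trim63 (MuRF1), the other main ligase, measured 115 to 124 CPM in vehicle libraries and 160, 162, 163, 364 and 141 CPM in weekly 1 to 5 and did not pass (0.62, limma adjusted p = 0.0517). The pair thus lay on opposite sides of vehicle in all 5 weekly libraries. Irs1, which carries the insulin signal, fell by 0.66 with weekly 4 and 0.40 without it.

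Among the largest falls were also genes with no list of their own. Rasd2, a small G protein, measured 29.5 to 34.6 CPM in vehicle libraries and 11.2, 24.3, 10.97, 12.6 and 7.74 CPM in weekly 1 to 5. Lepr, the leptin receptor (chromosome 4, 101717404 to 101815352, plus strand), measured 7.19 to 10.7 CPM in vehicle libraries and 1.74, 4.52, 4.13, 3.96 and 3.35 CPM in weekly 1 to 5, and fell by 1.29 (SE 0.21, limma adjusted p = 0.000569). Lep, its ligand, rose by 1.22 (adjusted p = 0.0143). Cd209b, a lectin of resident macrophages, fell by 1.53 and Aff3, a nuclear factor of the elongation family, by 1.30.

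Among small RNAs named by the rule, Snora73a fell in all 3 fits and others depended on weekly 4. Snora73a, a small nucleolar RNA, measured 25.4 to 32.1 CPM in vehicle libraries and 7.07, 6.70, 5.03, 10.8 and 15.5 CPM in weekly 1 to 5, and fell in all 3 fits by 1.73. Snord17 measured 510 to 592 CPM in vehicle libraries and 153, 55.5, 37.2, 2791 and 135 CPM in weekly 1 to 5. Rnu3a, the U3 RNA that guides ribosomal RNA processing, measured 18.5 to 28.5 CPM in vehicle libraries and 4.54, 1.72, 1.01, 78.8 and 5.03 CPM in weekly 1 to 5. Both were below vehicle in 4 weekly libraries and above it in weekly 4, and on the deposited scale they passed only without weekly 4, at -2.76 and -2.95 (limma adjusted p = 1.4e-12 and 2.99e-12).

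Other genes were called only without weekly 4 on this scale. Aldh1a7, an aldehyde dehydrogenase, measured 0.351 to 1.47 CPM in vehicle libraries and 4.81, 4.16, 6.54, 0 and 13.03 CPM in weekly 1 to 5. Slc24a3, Ptger3 and Clstn3 also rose only then, at 1.63, 1.70 and 1.68. Ccl8, Sfrp2 and Myh7 fell only then, at -1.40, -1.68 and -1.47, the last with weekly 1 above every vehicle library. The genes called only with weekly 4 changed by less. The 5 largest rises there were Cchcr1, Ppdpf, Eif6, Cd320 and Nfkbia, at 0.73 to 0.94, and each had its highest weekly value in weekly 4. The 5 largest falls were Plekhh2, Rras, Ecm2, Fat4 and Ctxn3, at -0.70 to -0.49, and each had its lowest weekly value in weekly 4. Since these genes were picked for losing their call without weekly 4, its place at the extreme is favoured by the selection.

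The daily group was used to see which of these changes differed by regimen, in a contrast that shares the weekly libraries with the one above. Of 14059 genes, 1159 were higher (8.24%) and 68 lower (0.484%) in weekly than in daily libraries on the deposited scale, and 371 (2.64%) and 292 (2.08%) with TMM scaling (limma, BH). Daily 3 held 20.54% of its reads in Gm26924, against 0.140% to 3.02% in the other daily libraries, and without it the deposited scale gave 639 and 115. The counts therefore rest on scaling, and the genes below passed or failed alike on both scales unless stated.

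Of the 17 fatty acid synthesis genes, 14 were higher and 0 lower in weekly than in daily libraries on the deposited scale, and 10 and 0 with TMM scaling. Elovl6 measured 2.17 to 9.42 CPM in daily libraries against 18.0 to 377 CPM in weekly ones, a difference of 4.03 (limma adjusted p = 0.000244). Tkt measured 14.6 to 29.1 CPM in daily libraries, 3.17 below weekly on the log2 scale (adjusted p = 9.4e-05). Ppp1r3b measured 0.620 to 2.49 CPM in daily libraries, with a difference of 3.2, and Pcx and Insig1 differed by 1.74 and 1.82. In each of these genes the weekly and daily libraries did not overlap. The adipocyte sum was 1173 to 2064 CPM in daily libraries, below the vehicle range of 2550 to 2762 CPM and the weekly range of 2747 to 7243 CPM, and its part in these differences was not tested.

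Of 17 core clock genes, 1 was higher and 0 lower in weekly than in daily libraries on the deposited scale, and 1 and 1 with TMM scaling. Of 13 clock output genes the counts were 3 and 0, and 3 and 2 with TMM scaling. Of 21 genes of metallothioneins and zinc transport they were 1 and 0, and 0 and 0 with TMM scaling. The clock and metal genes named above did not pass here. Per3 measured 10.1 to 16.9 CPM in daily libraries and differed by 0.35 (limma adjusted p = 0.118), Dbp by 0.43 (adjusted p = 0.12), Arntl by 0.17 (adjusted p = 0.452) and Nfil3 by -0.16 (adjusted p = 0.6). Mt1 and Mt2 differed by 0.62 and 0.47 (adjusted p = 0.0825 and 0.165), and Ppp1r3c by -0.13 (adjusted p = 0.605). Card14 differed by 0.59 (SE 0.29, adjusted p = 0.19). Rrad was higher in weekly than in daily libraries by 1.35 (SE 0.22, adjusted p = 0.000935), and Socs3 by 0.78 (adjusted p = 0.0365, and 0.134 with TMM scaling). Differences that miss the threshold do not show that the regimens act alike.

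Some genes lay lower in weekly than in daily libraries. Mir1b, a microRNA gene of muscle, measured 1.60, 2.80, 1.51, 0 and 1.42 CPM in weekly 1 to 5, 4.52 to 5.84 CPM in vehicle libraries and 3.87 to 5.57 CPM in daily libraries, with a weekly minus daily difference of -1.66 (limma adjusted p = 0.00423). These libraries came from a total RNA kit, so such reads need not come from the mature microRNA. Ddit4 measured 34.2 to 46.9 CPM in daily libraries, above 4 weekly libraries and below weekly 4, and differed by -1.48 (adjusted p = 0.0317).

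**Figure D5:**
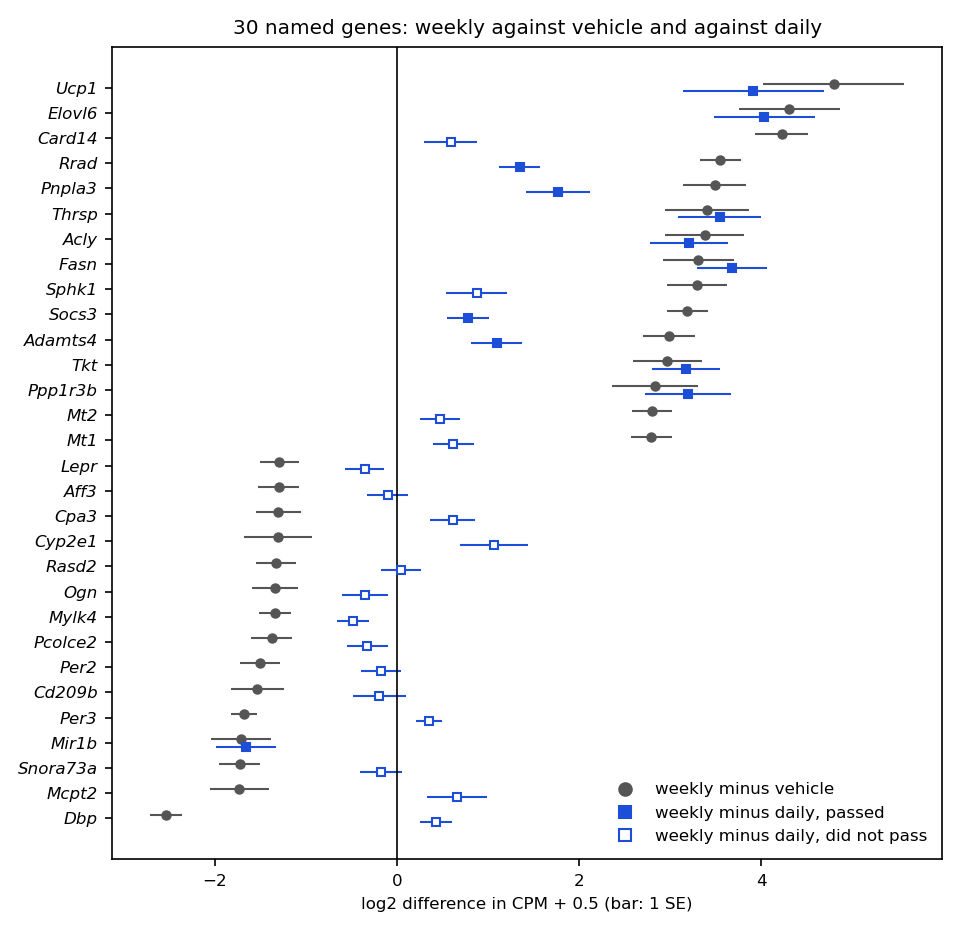
For 30 genes, the 15 with the largest rise and the 15 with the largest fall among genes called in all 3 fits whose groups did not overlap, circles show the log2 difference from vehicle to weekly and squares that from daily to weekly, with bars of 1 SE; filled squares passed the test against daily. Elovl6, Fasn and Tkt lie between 2.97 and 4.31 in both contrasts with filled squares, while the squares of Mt1, Mt2, Per3 and Dbp lie between 0.35 and 0.62 and are open.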

How the data were processed

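RNA of quadriceps was sequenced as stranded total RNA libraries, 5 each of vehicle, weekly and daily mice. Per the submitters' processing notes, the tools were TopHat2 2.1.0, HTSeq and edgeR with the mm10 and GRCm38 builds, and the strand setting of the counting was not given in those notes or the labels. The authors deposited 1 table of values per gene and library. The labels call the unit RPKM, but the deposited values are CPM: within each library they are whole multiples of 1 step, and all 222090 values came out whole within 0.01 reads, so the reads of each library were recovered. Depth by this count was 2780768 to 11052552 reads in the 10 libraries compared, and 3 reads were 0.271 to 1.08 CPM. Of 14806 features, 534 had no gene symbol and were left out (0.275% to 0.446% of each library), and 0 columns of values belonged to no sample.

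Genes with at least 1 CPM in at least 5 libraries were tested with limma 3.58.1 in R 4.3.3 on log2 of CPM + 0.5, with a trended variance, all 15 libraries and group as the only term, and p-values were adjusted by Benjamini and Hochberg over all genes. Changes are on this log2 scale, which understates those of low genes. Alternatives were TMM and other scalings, other filters and pseudocounts, leaving out each library, array weights, a replicate block, and edgeR 4.0.16 and DESeq2 1.42.0 on the recovered reads. On simulated data with the spreads of the groups, in which vehicle libraries varied less than weekly ones, large changes were recovered but false calls exceeded the nominal share. Pairs of vehicle libraries differed by somewhat more than counting noise (chi-square per degree of freedom 1.51 to 2.05, against 20.1 to 95.2 for weekly pairs). None was merged in the main fit. These values do not show whether the vehicle libraries came from separate animals.

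The gene lists and the comparison were chosen with earlier results of these data known. Genes are named by rule: the 15 largest rises and 15 largest falls among genes called in all 3 fits without overlap and at 5 CPM or more, the 3 smallest p in each list, and the 5 largest changes each way among genes called only with or only without weekly 4. Other list members are named after their values were seen. Promoters came from RefSeq (GRCm38.p6) and gene positions from GENCODE on GRCm38, so the start site of a gene can differ between them. Some genes that met the rule for named genes are not reported here.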

Additional observations from a re-analysis of the deposited data

Results flagged for a closer look

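In each group of 5 libraries, the value farthest out was set apart where its gap to the nearest other library exceeded 0.71 of the group's range (Dixon's 95% value), which chance does in about 1 in 20 groups. Of 402 groups 30 met this, 19 of them in weekly 4 and 11 in vehicle libraries. Some genes were named because their call depended on weekly 4, so its count cannot be set against that rate.

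In weekly 4, genes far above the other weekly libraries were Ddit4 at 87.03 CPM (others 7.419 to 11.48), Gadd45g at 114.4 (23.89 to 37.04), Cd14 at 89.54 (6.407 to 13.99), Cd52 at 4.675 (0.6674 to 1.29), Col15a1 at 295.6 (89.17 to 116.9), Itga7 at 206.8 (107.2 to 128) and Chmp4b at 117.6 CPM (58.95 to 66.64). Also high there were Eif6 at 56.46 CPM (16.47 to 23.22), Cd320 at 13.67 (6.342 to 6.965), Kif11 at 13.31 (3.02 to 4.071), Slc2a1 at 21.94 (9.048 to 10.96) and Psmd4 at 110.8 CPM (83.6 to 87.48). Low in weekly 4 were Irs1 at 51.42 CPM (118.4 to 136.6), Klhl38 at 2.158 (9.563 to 13.03), Mir1b at 0 (1.419 to 2.805), mt-Nd3 at 0 (8.276 to 12.51), mt-Nd5 at 247.8 (1307 to 1942) and mt-Nd6 at 28.05 CPM (94.12 to 144.2). The share of reads in mitochondrial coding genes was 0.169917% there, against 2.8109% to 3.55935% in the other weekly libraries.

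Vehicle 4 stood apart for Actn2 at 845.4 CPM (876.8 to 882.9), Mylk4 at 572.2 (584.8 to 587.6) and Cd14 at 7.411 CPM (5.724 to 6.104). Vehicle 2 stood apart for Gadd45g at 4.799 CPM (7.686 to 8.399), Nop2 at 12.17 (14.27 to 14.54) and Trim72 at 145.7 CPM (154.1 to 157.1). Vehicle 5 stood apart for Cchcr1 at 1.243 CPM (2.341 to 2.748), Myh7 at 454.4 (397.2 to 409.4) and Ucp1 at 0.113 CPM (0.5531 to 0.7304), and vehicle 1 for Cpa3 at 8.278 (5.495 to 6.104) and Rrad at 11.81 CPM (14.69 to 15.71).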

How the results depend on the processing

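The counts of genes that passed moved with scaling and with the libraries used, and are given as higher and lower in weekly libraries. Against vehicle, from 983 and 150, median centring gave 588 and 790, TMM scaling 588 lower, rescaling without mitochondrial and ribosomal RNA 386 lower, array weights 4918 and 772, and array weights with TMM 2133 and 1857. Leaving out daily 3 gave 1998 and 255, leaving out 1 vehicle library 549 to 589 and 93 to 95, and leaving out 1 weekly library 557 to 1430 and 118 to 255. Without weekly 4, the fit on the 2 groups alone gave 2597 and 472, and TMM scaling with all groups gave 1052 lower. With weekly 4 kept, the 2 groups alone with TMM gave 413 and 303. With vehicle averaged to 1 sample the counts were 6 and 1, or 8 and 2 with TMM. edgeR gave 578 and DESeq2 744 lower. Against daily, from 1159 and 68, TMM gave 371 and 292, rescaling 300 and 193, median centring 318 and 326, leaving out daily 3 639 and 115, array weights 2975 and 474, array weights with TMM 1035 lower, leaving out 1 weekly library 476 to 1712 and 44 to 170, TMM without weekly 4 900 lower, and averaged vehicle 215 and 17, or 101 and 103 with TMM. The replicate block gave 949 and 147 against vehicle and 929 and 56 against daily, and without weekly 4 it gave 1257 and 222, and 137 lower against daily. Same-numbered libraries did not deviate together (correlations -0.027 to -0.001, and 0 of 5 libraries correlated best with their own number), so the numbers were not treated as pairs. Bpgm, at 0.072, turned to -0.105 with TMM, -0.0535 after rescaling, -0.169 with median centring, -0.0236 without weekly 4 with TMM, -0.0453 with weights and TMM, -0.125 in the 2 groups with TMM, -0.106 with averaged vehicle and TMM, -0.0571 in edgeR and -0.0607 in DESeq2, and ranged from -0.045 to 0.136 with 1 library left out. Csf3r, at -0.15, ranged from -0.439 to 0.181 with 1 library left out, and was above 0 only without weekly 1. The cause of these shifts was not tested. Of 152 named genes that passed, 7 passed under every alternative run: Card14, Rrad, Socs3, Mt1, Mt2, Adamts4 and Dbp. Arntl, Per3 and Nfil3 missed 1 of 29 alternatives, Elovl6, Fasn and Mylk4 missed 2, and at the other end Nfkbia missed 19. In the alternatives with vehicle averaged to 1 sample that group holds 1 value, so missing there also reflects lost replication. Depth limits low genes most in weekly 4, where 3 reads were 1.08 CPM.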
